A study of Rattus norvegicus with 6 samples.

Results

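The enzymes that make, convert and break down ceramide were followed in liver RNA from animals on a high-fat diet, with and without Huazhuo Tiaozhi granule (HTG), a herbal formula. The 10 genes were taken by symbol from the 32930 rows of the deposited table. They were Sptlc1, Sptlc2, Cers2, Cers5, Cers6, Degs1, Sgms1, Ugcg, Smpd1 and Asah1, each on a single row. The HFD group (n = 3) received the high-fat diet with 0.5% CMC-Na, the gavage vehicle, and the HTG group (n = 3) received the same diet with HTG. The series' design text gives 12 weeks for the interventions, while the paper's methods give that length to the diet and start the gavage partway through it. The treatment label of the HTG libraries spells the agent HCG, while their titles and the study's design spell it HTG. The labels name rats, the paper's account of the RNA sequencing names C57BL/6 J mice, and the table lists mouse Ensembl genes, so the species of the animals was not settled here. The labels give no age for the sequenced animals, and no group on a normal diet was among these libraries.

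Ceramide is the hub of sphingolipid metabolism, a fatty acid joined to a sphingoid base. Its synthesis starts with serine palmitoyltransferase in the endoplasmic reticulum, passes through a ceramide synthase and ends with a desaturase, and ceramide is then turned into sphingomyelin or glucosylceramide. Sphingomyelinases and ceramidases release ceramide and sphingosine again, partly in the lysosome. In the liver, ceramides with long and very long acyl chains have been linked to fat storage and insulin response.

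The 6 libraries held between 50648778 and 90563477 estimated counts. Low counts piled up at 4 and 8, and 4 counts were taken as roughly 1 sequenced fragment, which gives between 12662194 and 22640869 fragments per library. HTG library 3 was the shallowest. All 10 genes passed the expression filter, and the thinnest value among them was that of Cers5 in HTG library 3, about 47 fragments, with a counting error of 14.5%. Levels of different genes are given as FPKM, which is per transcript length, and differences between the groups as CPM, counts divided by the library's total after TMM scaling. Where 3 values are given for a group, they stand in the order of replicates 1, 2 and 3, under HFD for the HFD group and under HTG for the HTG group. The liver origin of the libraries was visible in its defining genes, since the 10 hepatocyte markers summed to between 72400 and 97500 CPM. In bulk liver, fewer cells of a type and less RNA per cell cannot be told apart.

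The desaturase Degs1 and the breakdown enzyme Smpd1 were lower in every HTG library than in every HFD library, by 2.01-fold and 1.70-fold, while the synthases Cers2, Cers5 and Cers6 and the palmitoyltransferase subunits Sptlc1 and Sptlc2 overlapped between the groups. Sgms1 was also lower, by 1.49-fold, and Asah1 by 1.41-fold. Ugcg was the only member whose normalised counts were higher in all HTG libraries, by 1.24-fold. None of the 10 passed an adjusted p under 0.05 in edgeR's quasi-likelihood test, beside 2 of the 18455 genes tested (0.0108%). At an unadjusted p under 0.05, 4 members were lower, against 12.4% of all genes, and 0 were higher, against 12.3%. The count of 4 became 2 when HFD library 2, HTG library 2 or HTG library 3 was left out. The median log2 fold change of the members was -0.17, and that of all genes tested was 0.03. At an adjusted p under 0.1, 1 member (Degs1) was lower, against 5.43% of all genes. In DESeq2, Degs1 and Smpd1 had an adjusted p under 0.05, 2 members against 7.55% of the genes with an adjusted p there.

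**Figure D1:**
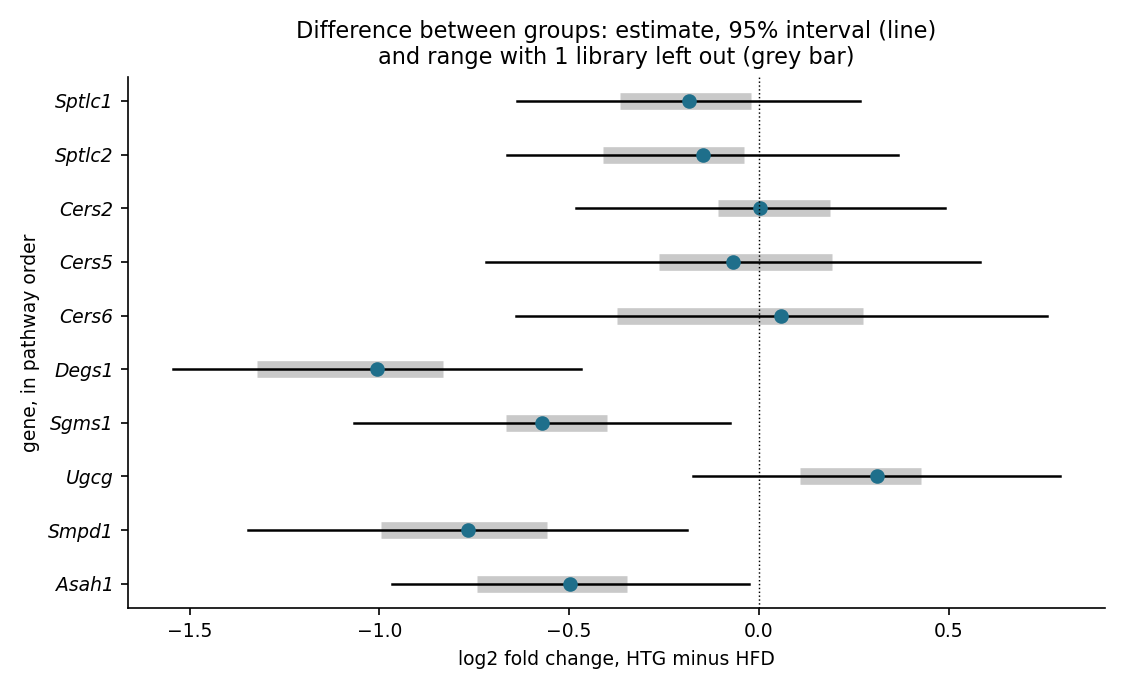
The log2 fold change (HTG minus HFD, horizontal axis) of each of the 10 genes is a point, with its 95% interval from edgeR as a line and the range over the 6 fits that each left out 1 library as a grey bar. The intervals of Degs1, Smpd1, Sgms1 and Asah1 lie below 0, and the other 6 include 0.

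The levels per length spanned a wide range. Cers2 stood at the top, with a mean FPKM of 76.5 over the 6 libraries, above 97% of the genes tested. It was followed by Degs1 with 17.3 and Asah1 with 10.7 (mean FPKM, n = 6), with Smpd1 next. Sptlc1 (4.5), Ugcg (3.38), Sptlc2 (2.78) and Cers6 (2.11) lay in the middle, and Cers5 (1.1) and Sgms1 (0.68) were lowest. Most neighbours in this order kept their places in all 6 libraries. The exceptions were Asah1 and Smpd1, Sptlc1 and Ugcg, and Ugcg and Sptlc2, which each kept it in 5 of 6, so these neighbours did not differ beyond their spread. Within the HFD group the mean FPKM of Asah1 and Smpd1 was equal, at 12.8 ± 1.85 and 12.8 ± 1.96 (SD, n = 3 each).

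**Figure D2:**
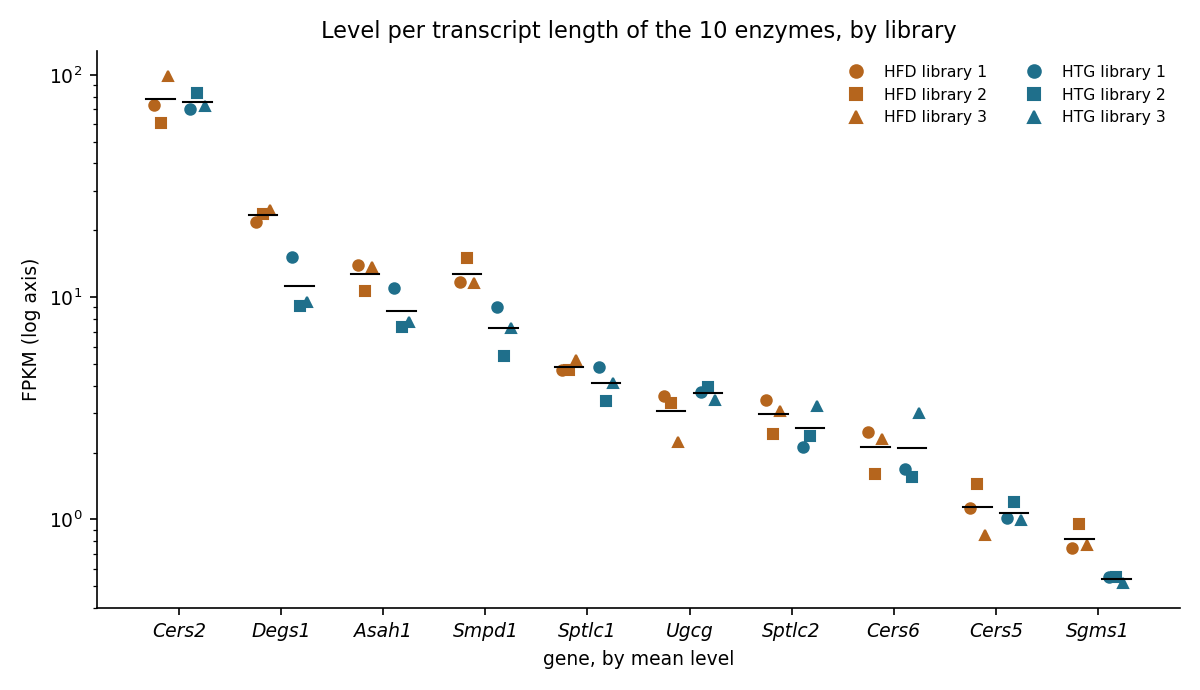
FPKM on a log axis for each gene, in order of mean level, with 1 point per library (HFD brown, HTG blue) and the group mean as a black line. Cers2 lies between 61.01 and 98.94 in all libraries and Sgms1 between 0.52 and 0.95.

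Sptlc1 and Sptlc2 encode the paired catalytic subunits of serine palmitoyltransferase, the committed step. Sptlc1 (ENSMUSG00000021468, chromosome 13, 53486784 to 53531433, minus strand, in the coordinates of the table) had FPKM values of 4.69, 4.69 and 5.22 under HFD and 4.87, 3.40 and 4.10 under HTG. HTG library 1 thus lay inside the HFD range, and the other 2 HTG libraries below it. On normalised counts the log2 fold change was -0.19, with a 95% interval from -0.64 to 0.27 (edgeR, adjusted p = 0.595). Sptlc2 (ENSMUSG00000021036, chromosome 12, 87351832 to 87435129, minus strand) had FPKM values of 3.46, 2.43 and 3.07 under HFD and 2.12, 2.37 and 3.24 under HTG. Here it was HTG library 3 that fell within the HFD range. Its log2 fold change was -0.15, with an interval from -0.66 to 0.37 (edgeR, adjusted p = 0.72). Changes within these intervals, in either direction, were not excluded with 3 libraries per group.

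The other parts of the palmitoyltransferase complex were uneven. Sptlc3, the alternative catalytic subunit, had 0 counts in all 6 libraries, which allows up to 3 fragments, or 12 counts, in each. Sptssa, the small activating subunit, was at 39.3 ± 0.907 CPM in the HFD group and 28.9 ± 6.18 in the HTG group (SD, n = 3 each), and its paralog Sptssb reached 4 counts in a single HFD library and 0 elsewhere. The ORMDL proteins restrain the enzyme. Ormdl1 had 16.2, 20.1 and 17.3 CPM under HFD and 9.23, 4.77 and 5.81 under HTG, so the groups lay well apart. Its log2 fold change was -1.44 (standard error 0.26, edgeR adjusted p = 0.0559, DESeq2 adjusted p = 0.000109). Ormdl2 and Ormdl3 had log2 fold changes of -0.54 and -0.72, with unadjusted edgeR p-values of 0.0735 and 0.0567 in the fit across all genes.

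The ceramide synthases attach the acyl chain, and each prefers its own chain lengths. Cers2, the enzyme for very long chains, lies on chromosome 3 (ENSMUSG00000015714, 95222102 to 95230910, plus strand). It had FPKM values of 73.14, 61.01 and 98.94 under HFD and 70.35, 83.11 and 72.28 under HTG. The HTG values all sat inside the HFD range. A log2 fold change of 0.00 was fitted, with an interval from -0.48 to 0.49 (edgeR, adjusted p = 0.993), and its sign turned in 9 of the 15 alternative fits. The end of Cers2 overlaps that of Setdb1 on the opposite strand, and whether the counting used the strand was not stated.

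Cers5 and Cers6 favour palmitoyl chains. Cers6 (ENSMUSG00000027035, chromosome 2, 68691785 to 68944626, plus strand) had FPKM values of 2.47, 1.6 and 2.30 under HFD and 1.69, 1.56 and 3.02 under HTG. HTG library 3 was the highest of the 6 and HTG library 2 the lowest, a coefficient of variation of 45.8% in CPM within the HTG group against 16.5% within the HFD group. Its log2 fold change was 0.06 (interval from -0.64 to 0.76) with all libraries and -0.37 without HTG library 3. Cers5 (ENSMUSG00000023021, chromosome 15, 99632762 to 99670346, minus strand) ran the other way in its spread. Its FPKM values were 1.13, 1.44 and 0.85 under HFD and 1.02, 1.2 and 0.99 under HTG, so all HTG values were within the HFD range. For Cers5 the log2 fold change was -0.07 (interval from -0.72 to 0.58).

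Of the summed FPKM of the ceramide synthase genes, Cers2 took 95.5% ± 0.992 in the HFD group and 95.6% ± 1.01 in the HTG group (SD, n = 3 each). Cers6 followed with 2.65% ± 0.498 and 2.69% ± 1.12, and Cers5 with 1.51% ± 0.706 and 1.36% ± 0.0564 (SD, n = 3 each). Cers4 made up 0.305% and 0.353% on average. Cers1, the enzyme of neurons and muscle, had between 0 and 18 counts, near the limit of 12. The shares of all 5 genes overlapped between the groups. Cers3 was not analysed here.

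Degs1 encodes dihydroceramide desaturase, which places the double bond that turns dihydroceramide into ceramide. It lies on chromosome 1 (ENSMUSG00000038633, 182103337 to 182110369, minus strand). Its estimated counts were 3850, 4512 and 4636 under HFD and 3282, 2282 and 1333 under HTG. The matching FPKM values were 21.88, 23.60 and 24.74 against 15.16, 9.10 and 9.55. The HFD libraries were close together and the HTG libraries all lay lower, with HTG library 1 nearest to the HFD group. In CPM, Degs1 was at 62.9 ± 5.75 in the HFD group and 31.3 ± 9.71 in the HTG group (SD, n = 3 each). This was a log2 fold change of -1.01 (standard error 0.24, interval from -1.54 to -0.47), with an unadjusted p of 0.00244 in the edgeR fit across all genes and an adjusted p of 0.0623. Among the 15 alternative fits the adjusted p ran from 0.00305 to 0.206 and was under 0.05 in 6, and the unadjusted p was under 0.05 in all 15.

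**Figure D3:**
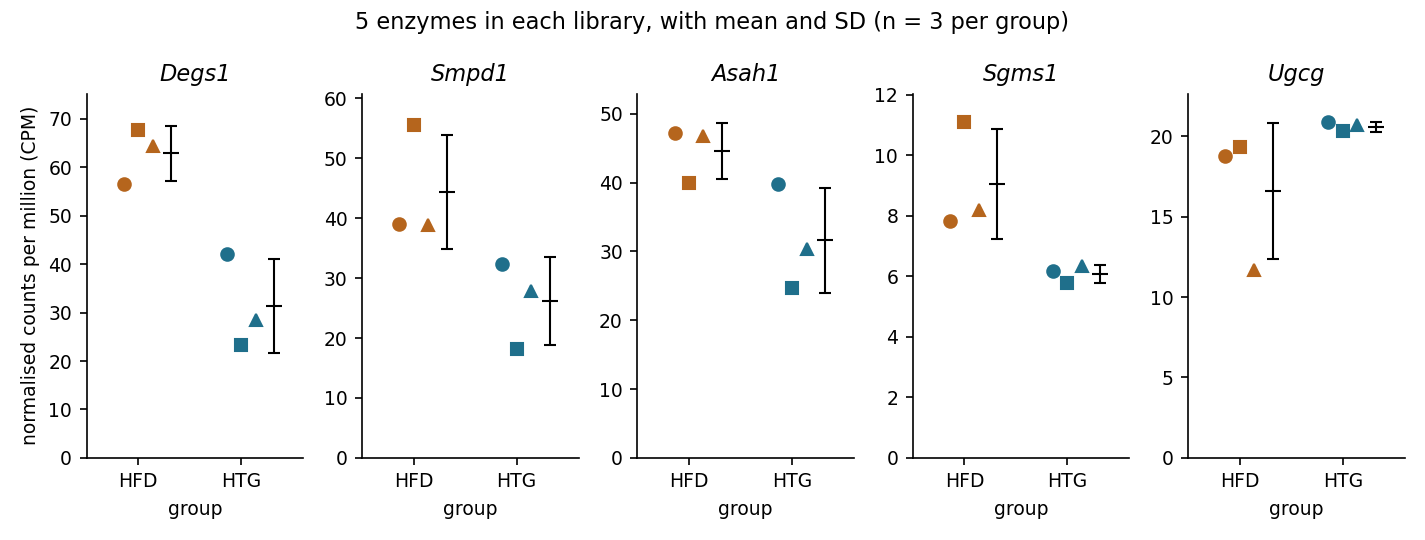
Normalised counts (CPM, vertical axes from 0) of Degs1, Smpd1, Asah1, Sgms1 and Ugcg in each library of the HFD and HTG groups, with the mean and SD of each group beside the points. Degs1 separates most, with 56.5 to 67.7 in the HFD libraries and 23.3 to 42.1 in the HTG libraries, while the nearest Asah1 values of the groups are 39.9 and 39.8.

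Sgms1 and Ugcg both use ceramide in the Golgi. Sgms1 makes sphingomyelin, and Ugcg adds glucose to make glucosylceramide, the root of the glycosphingolipids. Sgms1 (ENSMUSG00000040451, chromosome 19, 32100127 to 32367114, minus strand) had estimated counts of 533, 742 and 589 under HFD and 481, 564 and 297 under HTG. After normalisation these were 7.82, 11.1 and 8.20 CPM against 6.17, 5.77 and 6.34, with no overlap. The HTG libraries were nearly level, and HFD library 2 stood above the other 2. The log2 fold change was -0.57 (standard error 0.22, edgeR unadjusted p = 0.0287 and adjusted p = 0.152 in the fit across all genes). The unadjusted p was no longer under 0.05 when HFD library 2 was left out, and likewise for HTG library 2 and HTG library 3. The gene 2700046G09Rik overlaps its start on the opposite strand and carried 149.2 counts on average.

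Ugcg (ENSMUSG00000028381, chromosome 4, 59189257 to 59222833, plus strand) had 18.8, 19.3 and 11.7 CPM under HFD and 20.9, 20.3 and 20.7 under HTG. The HTG libraries were almost equal, and HFD library 3 was alone at the bottom. On the FPKM scale the groups overlapped, since HFD library 1 had 3.61 and HTG library 3 had 3.45. Its log2 fold change was 0.31, with an interval from -0.17 to 0.79 (edgeR, adjusted p = 0.401).

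Without any scaling between libraries, the ratio of Ugcg to Sgms1 in FPKM was 4.88, 3.52 and 2.90 under HFD and 6.78, 7.15 and 6.63 under HTG. Every HTG ratio was above every HFD ratio, with means of 3.76 ± 1.01 and 6.85 ± 0.263 (SD, n = 3 each), a 1.82-fold difference. It is given as a description, since the genes were chosen with earlier results known. The ratio of Sptlc2 to Sptlc1 was 0.615 ± 0.112 in the HFD group and 0.641 ± 0.184 in the HTG group. That of Cers6 to Cers2 was 0.0277 ± 0.00542 and 0.0282 ± 0.0121, and that of Asah1 to Smpd1 was 1.03 ± 0.278 and 1.21 ± 0.141 (SD, n = 3 each). These 3 ratios overlapped between the groups. The ratio of Sptlc3 to Sptlc2 was 0 throughout.

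**Figure D4:**
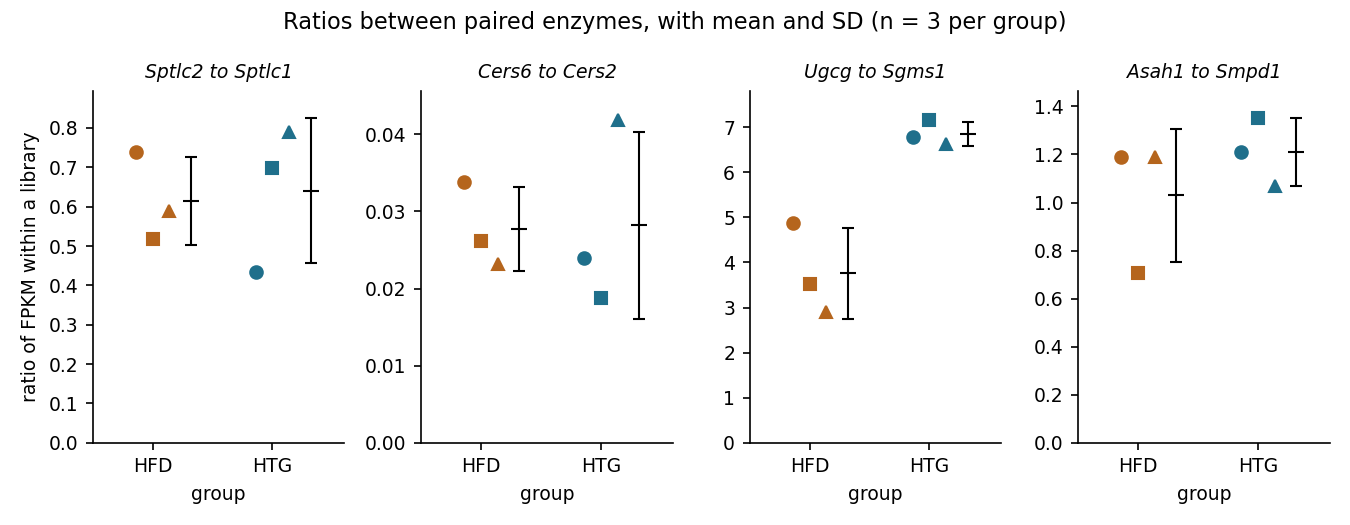
Ratios of FPKM within each library (vertical axes from 0) for 4 pairs of enzymes, by group, with the mean and SD beside the points. The ratio of Ugcg to Sgms1 lies between 2.90 and 4.88 in the HFD libraries and between 6.63 and 7.15 in the HTG libraries, and the other 3 ratios overlap.

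Smpd1 and Asah1 are the acid sphingomyelinase and the acid ceramidase of the lysosome. Sphingomyelin yields ceramide through Smpd1, and Asah1 breaks ceramide down to sphingosine. Smpd1 (ENSMUSG00000037049, chromosome 7, 105203567 to 105207596, plus strand) had estimated counts of 2659, 3699 and 2787 under HFD and 2525, 1765 and 1306 under HTG. In FPKM these were 11.73, 15.02 and 11.54 against 9.05, 5.46 and 7.26. All HTG libraries were lower, and HFD library 2 was the highest of all. The CPM were 44.4 ± 9.56 and 26.1 ± 7.34 (SD, n = 3 each), a log2 fold change of -0.77 (standard error 0.25). The unadjusted p was 0.0154 and the adjusted p 0.115 in the edgeR fit across all genes, and the DESeq2 adjusted p was 0.0438. Without HFD library 2 the log2 fold change was -0.58 and the edgeR unadjusted p was 0.0539.

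Asah1 (ENSMUSG00000031591, chromosome 8, 41793234 to 41827810, minus strand) had FPKM values of 13.97, 10.63 and 13.69 under HFD and 10.96, 7.38 and 7.76 under HTG. HTG library 1 exceeded HFD library 2 on this scale, and in CPM they were separated only by 39.8 against 39.9. The log2 fold change was -0.50 (standard error 0.21, edgeR unadjusted p = 0.0404 and adjusted p = 0.181 in the fit across all genes). In 4 of the 6 fits without 1 library, those without HFD library 1, HFD library 3, HTG library 2 or HTG library 3, the unadjusted p was not under 0.05, and the log2 fold changes over the 6 ran from -0.74 to -0.35.

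Counting groups that did not overlap in CPM, 4 members were lower in the HTG group, against 15.5% of all genes tested, and 1 was higher, against 16.5%. In FPKM, 3 of these 5 still did not overlap (Degs1, Smpd1 and Sgms1).

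The wider sphingolipid list held 65 genes besides the 10, of which 62 were in the table and 59 were tested. Smpdl3a, Ormdl1 and Hexa had the smallest p among those that were lower. At an unadjusted p under 0.05 in the edgeR fit, 18 of the 59 (30.5%) were lower, against 12.4% of all genes, and 3 (5.08%) were higher, against 12.3%, and none had an adjusted p under 0.05. At an adjusted p under 0.1, 9 were lower, against 5.43% of all genes, and 0 higher, against 5.41%. Their median log2 fold change was -0.34. In DESeq2, 10 were lower at an adjusted p under 0.05, against 7.55% of all genes, and 1 was higher, against 6.29%. Without HTG library 3 the count of lower genes at an unadjusted p under 0.05 was 11, and without HTG library 2 the count of higher genes was 0.

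By branch, members included, the counts with an unadjusted p under 0.05 were 4 lower and 0 higher of 14 tested for de novo synthesis and 4 lower and 0 higher of 10 for sphingomyelin. They were 1 lower and 0 higher of 5 for ceramidases and ceramide kinase, and 7 lower and 2 higher of 20 for glycosphingolipids. For sphingosine 1-phosphate they were 6 lower and 1 higher of 16, and for lipid transfer proteins 0 of 4. Beside the 12.4% of all genes that were lower, the shares were 28.6% for de novo synthesis, 40% for sphingomyelin, 35% for glycosphingolipids and 37.5% for sphingosine 1-phosphate, and the branches of 5 and 4 genes are too small to set against it. The shares that were higher, at most 10%, were all under the 12.3% of all genes. The medians of all 6 branches were below 0, from -0.44 for sphingomyelin to -0.23 for lipid transfer. With the members left out, the lower shares were 37.5% of 8 genes for de novo synthesis and 25% of 8 for sphingomyelin. They were 36.8% of 19 for glycosphingolipids and 37.5% of 16 for sphingosine 1-phosphate.

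**Figure D5:**
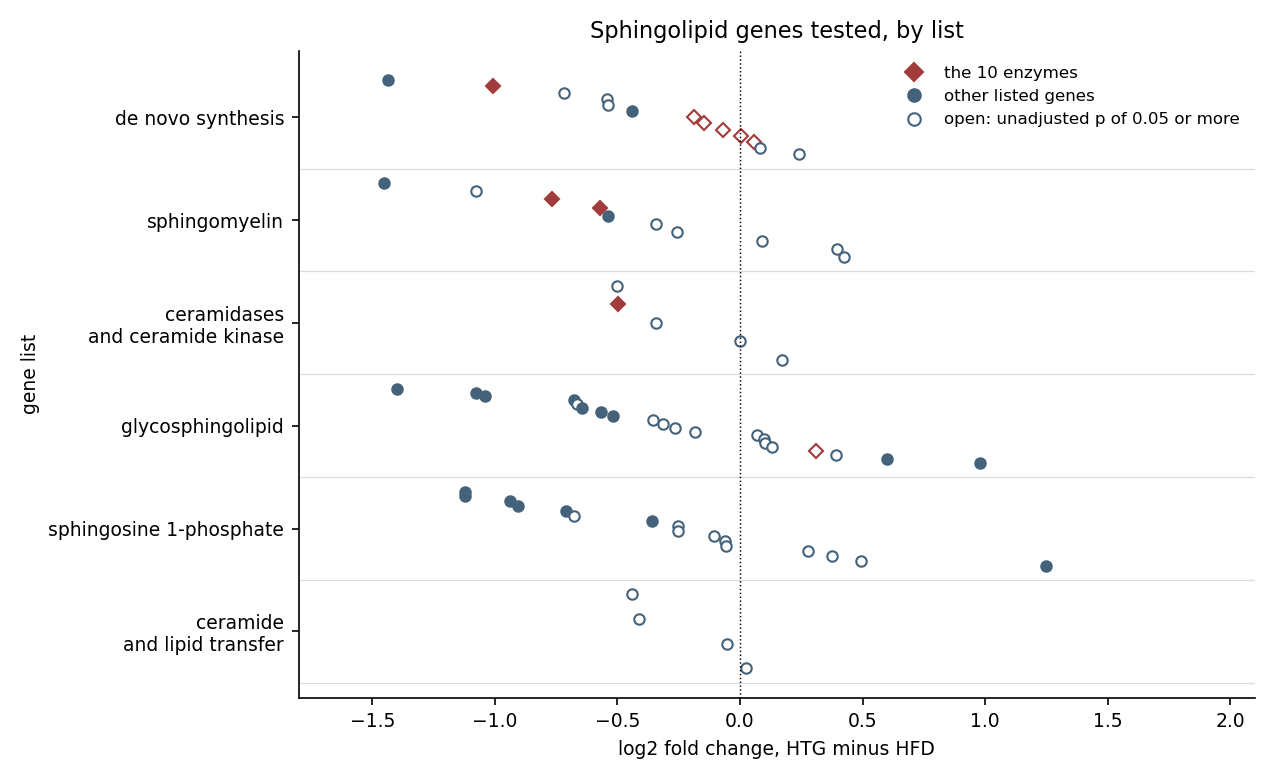
The log2 fold change (HTG minus HFD) of each tested sphingolipid gene in 6 lists, with the 10 enzymes as red diamonds and filled symbols for an unadjusted edgeR p under 0.05. Fa2h, with 0 counts in the HTG group, is not drawn. Filled symbols lie mostly left of 0, and 3 filled symbols lie to the right.

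Outside the 10, the lower gene with the smallest p was Smpdl3a, which encodes a secreted phosphodiesterase related to acid sphingomyelinase. It had 35.9, 38.8 and 33.6 CPM under HFD and 18, 11.4 and 10.2 under HTG, with no overlap. Its log2 fold change was -1.45 (standard error 0.23, edgeR adjusted p = 0.0538). Next were Ormdl1, described above, and Hexa, a hexosaminidase subunit that degrades gangliosides in the lysosome. Hexa was at 77.3 ± 10.2 CPM in the HFD group and 36.6 ± 9.29 in the HTG group (SD, n = 3 each), a log2 fold change of -1.08. Fa2h, the fatty acid 2-hydroxylase, reached counts of 28, 12 and 24 under HFD and none under HTG. With the HTG libraries set at the limit of 12 counts and the HFD counts as observed, it was 1.74-fold lower. The HFD counts were few, and HFD library 2 was itself at the limit, so this is not a firm bound. Plpp3, a lipid phosphate phosphatase that also acts on sphingosine 1-phosphate, was at 93.7 ± 12.5 and 50.1 ± 9.46 CPM (SD, n = 3 each), a log2 fold change of -0.90.

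The higher genes with the smallest p were Mfsd2b, an exporter of sphingosine 1-phosphate in red cells and platelets, Gal3st1, the sulfatide sulfotransferase, and Gba2, the glucosylceramidase outside the lysosome. Their log2 fold changes were 1.25, 0.98 and 0.60, with edgeR adjusted p-values of 0.108, 0.145 and 0.149. Mfsd2b had 1.25, 1.81 and 1.14 CPM under HFD and 1.93, 4.74 and 3.31 under HTG, so HTG library 1 was only just above the HFD range. B4galt5, the lactosylceramide synthase, and Smpd4, a neutral sphingomyelinase, overlapped between the groups, with log2 fold changes of 0.39 and 0.40.

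Grouped after the values had been seen, 10 of the listed genes that encode lysosomal hydrolases of sphingolipids or their activators were Smpd1, Asah1, Galc, Glb1, Gla, Hexa, Gm2a, Psap, Arsa and Neu1. In the edgeR fit 7 of these 10 had an unadjusted p under 0.05, all lower, and the median log2 fold change of the 10 was -0.58. Psap encodes prosaposin, the precursor of the saposins that assist Asah1 and other lysosomal enzymes. It had 741, 731 and 629 CPM under HFD and 401, 193 and 202 under HTG, a log2 fold change of -1.40 (standard error 0.31, edgeR adjusted p = 0.0612). Galc had a log2 fold change of -0.35, Arsa of -0.31 and Neu1 of 0.10, and these 3 had no unadjusted p under 0.05.

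Kupffer cells and other macrophages are rich in lysosomes, and their 8 markers are given beside these values. The summed level of the 8 was between 616 and 1140 CPM in the HFD libraries and between 437 and 770 in the HTG libraries, with overlap. The log2 fold change was below 0 for all 8, with a median of -0.44. In the edgeR fit 2 of the 8 (25%) were lower at an unadjusted p under 0.05, against 12.4% of all genes. These were Adgre1 (log2 fold change -1.53, groups not overlapping) and Cd5l (log2 fold change -0.86, groups overlapping). Clec4f had a log2 fold change of -0.08. The 10 hepatocyte markers summed to between 81100 and 97500 CPM in the HFD libraries and between 72400 and 73900 in the HTG libraries, and albumin (Alb) alone made up between 71.1% and 76.4% of the sum. These ranges of the sum did not overlap. The log2 fold change was below 0 for 8 of the 10 hepatocyte markers and above 0 for 2, with a median of -0.52. In the edgeR fit 3 of the 10 (30%) were lower at an unadjusted p under 0.05 (Apob, Tat and Cps1), against 12.4% of all genes. At that threshold 1 of the 10 (10%) was higher, against 12.3% of all genes. This was Apoa2, higher in every HTG library (log2 fold change 0.85, edgeR unadjusted p = 0.0119). Ttr had a log2 fold change of 0.06. The part of either in the sphingolipid values was not tested. The summed levels of the stellate (8 markers), sinusoidal endothelial (8), biliary (6), leukocyte (9) and red cell (5) lists overlapped between the groups, with HFD and HTG ranges of 67.5 to 141 and 74.8 to 88.9, 98.2 to 211 and 170 to 249, 85.6 to 107 and 59.6 to 132, 35.5 to 41.0 and 34.2 to 49.6, and 203 to 367 and 209 to 368 CPM. Of the 6 exocrine pancreas markers, Cel and Pnlip never exceeded 12 counts, and the summed level was at most 8.06 CPM.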

How the data were processed

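The authors deposited 1 table with 2 values per gene and library. The estimated counts were deposited as whole numbers without normalisation between libraries, and the FPKM values were scaled by the authors to transcript length and library size. For the 7 members with an FPKM of at least 2 in every library the ratio of count to FPKM was constant within 2% after each library's own constant, so both columns carry the same measurement. The submitters' processing notes name HISAT2, StringTie, SAMtools and the rat build mRatBN7.2, while the rows are mouse Ensembl genes. Which build the coordinates follow is not given in the sources used here. Among the low counts the value 4 occurred 6450 times and 8 occurred 3333 times, against 2549 times for 3, 1757 for 5, 1521 for 7 and 1170 for 9. From these peaks 4 counts were read as roughly 1 fragment, although 1 and 2 occurred 5104 and 4229 times, so the unit is approximate, as are the fragment totals, counting errors and limits that rest on it. Limits of 3 fragments cover counting error only. The design text gives 6 animals for the 6 libraries.

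Groups and replicate numbers were read from the sample titles. Counts were compared by edgeR 4.0.16 (glmQLFit, glmQLFTest, TMM, filterByExpr) in R 4.3.3 across all genes, with the group as the only term and Benjamini-Hochberg adjustment. The script was tested on simulated counts. Standard errors are the log2 fold change over the root of the F statistic. Alternatives were DESeq2 1.42.0, DESeq2's size factors, upper-quartile scaling, a minimum of 10 counts in every library, no filter, the replicate number as a block, counts divided by 4, limma 3.58.1 on log2(FPKM + 0.1) or log2(FPKM + 1) at a mean FPKM of at least 1, and each library left out. Non-overlap in FPKM was added after the data were seen. The members and lists were chosen with earlier results of these data known. Outside the members, the genes named were the 5 with the smallest p in each direction, the palmitoyltransferase complex and the ceramide synthases. Psap, Galc, Arsa, Neu1 and the lysosomal grouping were chosen after their values were seen, and some listed genes are not reported here by name. Cers3, Enpp7 and Acer1 were not analysed here, nor were the pancreas markers Prss1, Cpa1 and Amy2a1.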

Additional observations from a re-analysis of the deposited data

How the results depend on the processing

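The count of members lower at an unadjusted p under 0.05 was 4 in edgeR and 3 or 4 in the 9 alternative fits with all libraries. It was 3 with the replicate block and in both limma fits, and in limma Sgms1 was under the filter. With 1 library left out it ran from 2 to 4, with 2 when HFD replicate 2, HTG replicate 2 or HTG replicate 3 was left out. No fit made a member higher at that threshold. Members at an adjusted p under 0.05 numbered 2 in DESeq2 and 1, Degs1, with at least 10 counts in every library, with counts divided by 4 and in both limma fits, and from 0 to 1 with a library left out (1 without HTG library 1). Listed pathway genes, members included, numbered 13 in DESeq2, 2 without a filter, 7 with at least 10 counts in every library, 7 with counts divided by 4, 8 in both limma fits, and from 0 to 7 with a library left out (7 without HTG library 1). Over all genes the count of 2 became 2401 in DESeq2, 162 without a filter, 684 with at least 10 counts, 822 with counts divided by 4, 878 and 884 in limma with a pseudocount of 0.1 and 1, 0 with the replicate block, and from 0 to 653 with a library left out, the 653 without HTG library 1, 7 without HFD library 2, and 0 without HFD library 3, HTG library 2 and HTG library 3. For the pathway genes outside the 10, lower counts ran from 11 to 21 and higher counts from 0 to 4 with a library left out. The higher count of 3 was 0 in both limma fits and without HTG library 2. Members whose groups did not overlap numbered 5 in CPM and 3 in FPKM.

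The sign of 3 small differences turned. For Cers2 the log2 fold change was -0.0215 in DESeq2, -0.0214 with its size factors, -0.021 and -0.0211 in limma, -0.0058 without a filter, and between -0.11 and 0.19 with a library left out, as low as -0.11 without HFD library 2, -0.06 without HFD library 1, -0.01 without HTG library 2 and -0.02 without HTG library 3. For Cers5 it was 0.19 without HFD library 2, in a range from -0.26. For Cers6 it was -0.0194 with the replicate block, -0.0592 and -0.035 in limma, -0.07 without HFD library 2 and -0.37 without HTG library 3, with 0.27 as the highest value. The cause was not tested. The difference in the Cers2 share of 0.123 percentage points stayed within 1 SD of the libraries, between -0.262 and 0.696 with a library left out and -0.0347 from counts.

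Across genes, the deviations of libraries with the same replicate number in the 2 groups had r = -0.153, -0.121 and 0.212 for numbers 1, 2 and 3. For libraries with different numbers r ran from -0.208 to 0.318, the latter for HFD library 2 with HTG library 1. The numbers were therefore not taken to pair the libraries. With 3 libraries against 3, an exact two-sided permutation test of a single value cannot go below p = 0.1.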
